A study of Homo sapiens with 6 samples.

Results

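RRAD, RND1 and ARL14 encode small GTPases of the Ras superfamily. The 3 genes were taken by symbol from the tables of 6 RNA-seq libraries, where they are 3 of 771 entries with a gene symbol. They were chosen by their measured values, the decrease in CPM between the groups, which is among the largest of the series. That difference is therefore described below without a test. The cells were ES2, an established human line from an ovarian cancer, which the labels class as epithelial ovarian cancer cells. Cells of the control ASO group (3 libraries) received a control antisense oligonucleotide, per the sample titles, and are labelled Control. Cells of the RUNX1-IT1 ASO group (3 libraries) received an antisense oligonucleotide against RUNX1-IT1, a long non-coding RNA whose gene lies inside RUNX1, and are labelled as a knockdown. Both groups are the same single cell line, and for the oligonucleotides neither sequence nor dose nor time is given in the sources used here. The labels do not say whether replicates 1 to 3 were separate cultures, so p-values measure only the spread between these libraries, which may be technical.

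Small GTPases are molecular switches that bind guanine nucleotides. Exchange factors load them with GTP and turn them on, and GTPase-activating proteins help them hydrolyse GTP and turn them off. The 3 genes belong to different branches of the superfamily. RRAD belongs to the Rad/Gem/Kir branch, whose proteins bind the beta subunits of voltage-gated calcium channels and reduce calcium currents. RRAD is best known from heart and skeletal muscle and as a p53 target gene. RND1 is a Rnd protein, which hydrolyses GTP hardly at all and so stays in the GTP-bound form. It loosens actin stress fibres and cell adhesion, and binds plexin receptors. ARL14 is an Arf-like GTPase best known from dendritic cells, where it acts with an adaptor and a myosin in moving vesicles that carry MHC class II.

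The tables bear on every value given here. Each lists the same 1113 entries in CPM, read counts scaled to the size of the library, and these entries make up 1.02 to 1.11% of a control ASO library and 0.363 to 0.389% of a RUNX1-IT1 ASO library. The group means were 2-fold or more apart for 1112 of the 1113 entries and 1.99-fold apart for the last, and for 1081 entries the mean of the RUNX1-IT1 ASO group was the lower one. The listed entries are therefore treated as already selected for a difference between these libraries, and nothing is said of the rest of the transcriptome. RUNX1-IT1 itself is not analysed here, so the labels were not checked against the targeted RNA. Of 19 epithelial ovarian cancer markers 2 were listed, PAX8 and ESR1, and in a table selected this way an unlisted marker is not an absent one. The tables list 1 of 20 striated muscle and heart markers (CKM, at 0.598 to 1.1 CPM in the control ASO group and 0.176 to 0.428 CPM under the RUNX1-IT1 ASO), 1 of 15 immune markers (ITGAM, 1.62 to 1.84 and 0.059 to 0.214 CPM) and none of 12 fibroblast and endothelial markers. Their part in the results was not tested.

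RRAD stood at 18.6, 16.9 and 20.7 CPM in control ASO replicates 1, 2 and 3. The RUNX1-IT1 ASO libraries held 1.12, 1.13 and 1.41 CPM of it in replicates 1, 2 and 3. The groups were far apart, and the lowest control library still lay 11.99-fold above the highest RUNX1-IT1 ASO library. The group means were 18.7 ± 1.94 and 1.22 ± 0.162 CPM (SD, n = 3 each), a ratio of 15.4. On the log2(CPM + 1) scale RRAD was 3.15 lower, a difference of -3.15 ± 0.12 (standard error from a limma fit over all tested genes). The evenly spaced steps of the CPM values give the reads behind them. RRAD had 291 to 440 reads per control ASO library and 21 to 24 per RUNX1-IT1 ASO library.

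RND1 stood at 14.6, 13.5 and 15.7 CPM in control ASO replicates 1, 2 and 3. It stood at 1.12, 1.29 and 1.46 CPM when RUNX1-IT1 was targeted, in the same order of replicates. Replicate 2 was the lowest and replicate 3 the highest control library, as for RRAD and for the summed CPM of all listed entries. The means were 14.6 ± 1.1 and 1.29 ± 0.171 CPM (SD, n = 3 each), a ratio of 11.3, and the log2(CPM + 1) difference was -2.77 ± 0.12 (SE). RND1 rested on 233 to 333 reads per control ASO library and 21 to 25 reads per RUNX1-IT1 ASO library.

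ARL14 stood at 12.95, 11.002 and 11.9 CPM in the control ASO replicates. Its RUNX1-IT1 ASO values were 1.28, 0.753 and 0.586 CPM in replicates 1, 2 and 3. The 3 low libraries were less alike than for the other 2 genes, with replicate 1 more than 2-fold above replicate 3. The means were 11.9 ± 0.978 and 0.874 ± 0.364 CPM (SD, n = 3 each), a ratio of 13.7, and the log2(CPM + 1) difference was -2.80 ± 0.15 (SE). Single-library ratios ran from 8.58 to 22.1 for ARL14, against 11.99 to 18.5 for RRAD and 9.22 to 13.97 for RND1. ARL14 had 190 to 260 reads per control ASO library and 24, 14 and 10 reads in RUNX1-IT1 ASO replicates 1, 2 and 3. All of these lie above 3 reads, the limit that a count of 0 allows, which is 0.141 to 0.176 CPM in these libraries and covers counting error only.

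**Figure D1:**
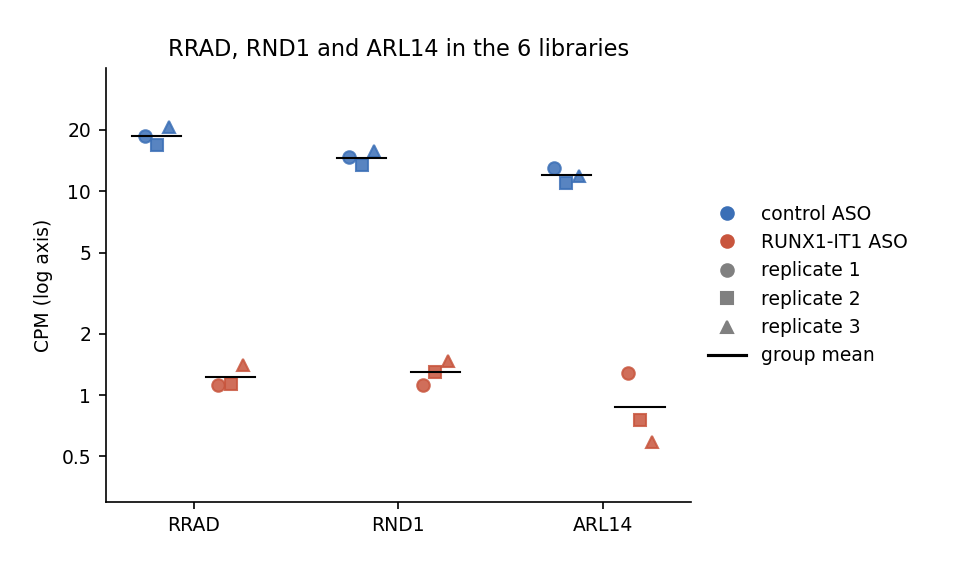
CPM on a log axis for RRAD, RND1 and ARL14 in the 3 control ASO libraries (blue) and the 3 RUNX1-IT1 ASO libraries (red), with 1 point per library, its shape giving the replicate, and a line at each group mean. Control libraries lie between 11.002 and 20.7 CPM and RUNX1-IT1 ASO libraries between 0.586 and 1.46 CPM, with the widest relative spread for ARL14 under the RUNX1-IT1 ASO.

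For all 3 genes every RUNX1-IT1 ASO library lay below every control ASO library, which holds for 97.1% of the 489 tested genes, so it does not set them apart from the other listed genes. In limma 97.5% of the 489 tested genes were called lower and 2.04% higher, and in edgeR on recovered reads 97.8% lower and 2.25% higher. The rule that picked the members used this same contrast. The size of the decrease is what placed them near the extreme. By the log2(CPM + 1) difference RRAD ranked 1, ARL14 ranked 5 and RND1 ranked 7 of 489, while the median over all tested genes was -1.11 (25th percentile -1.43, 75th percentile -0.88). ATF3, ARC and SNAI1 lay between RRAD and ARL14 (-3.07, -2.94 and -2.84), ID2 lay between ARL14 and RND1 (-2.80), and ALOXE3 came next after RND1 (-2.63). By the ratio of group means, which gives low genes more room, RRAD ranked 6, ARL14 ranked 7 and RND1 ranked 11. The genes above RRAD in that order were FRG2, FRG2B, ZEB2-AS1, RFPL4A and C11orf96, whose log2(CPM + 1) differences were -1.70, -1.89, -1.53, -2.29 and -1.66.

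**Figure D2:**
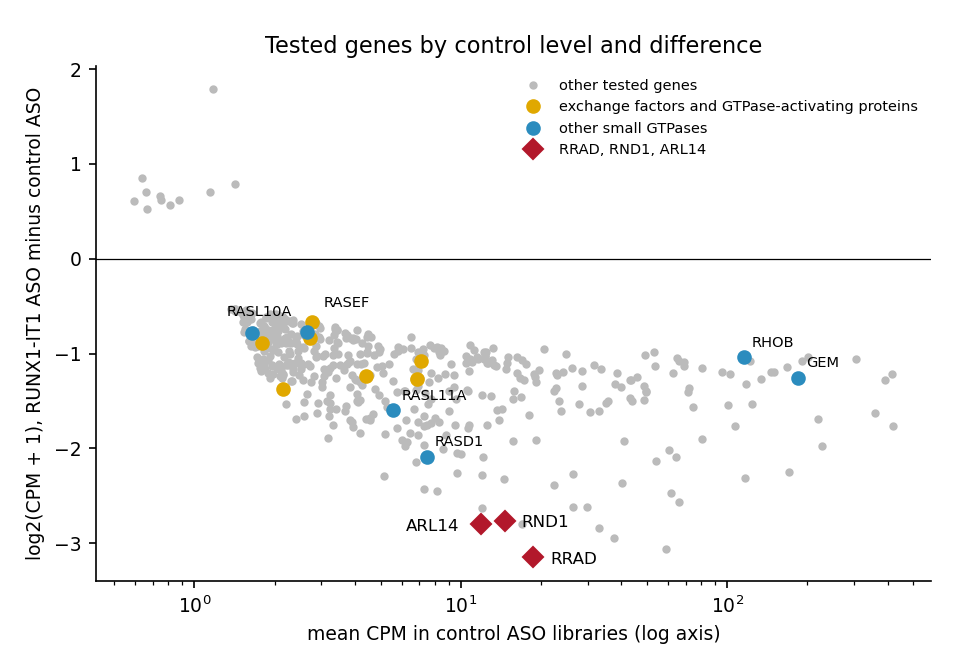
Difference in log2(CPM + 1), RUNX1-IT1 ASO minus control ASO, against the mean CPM in control ASO libraries (log axis) for the 489 tested genes. RRAD, RND1 and ARL14 (diamonds) lie at -3.15, -2.77 and -2.80, below the 6 other tested small GTPase genes (blue, -2.09 to -0.77) and the 7 tested regulators (yellow, -1.37 to -0.67). The horizontal line marks no difference.

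The spread between replicates can be set beside the spread that counting alone would give. Under the RUNX1-IT1 ASO the coefficient of variation was 13.3% for RRAD and 13.2% for RND1, where counting error alone would give 21.3% and 20.7%. ARL14 varied by 41.6% there, with 25% from counting alone. At 10 to 25 reads per library, differences of this size among the RUNX1-IT1 ASO replicates were not resolved. The control ASO libraries, with more reads, varied by 10.4% for RRAD, 7.53% for RND1 and 8.19% for ARL14, against 5.21%, 5.91% and 6.54% from counting alone.

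Dividing CPM by transcript length allows levels to be compared between genes. The lengths are those of the principal transcripts in GENCODE release 29, which are 1569 bases in RRAD, 1681 in RND1 and 1294 in ARL14. Per kilobase, the control ASO level was 11.9 ± 1.24 CPM for RRAD, 9.23 ± 0.756 for ARL14 and 8.69 ± 0.655 for RND1 (SD, n = 3). RRAD was the highest in every control library (10.7 to 13.2 CPM per kilobase), while ARL14 (8.50 to 10.0) and RND1 (8.03 to 9.33) overlapped. With all annotated exons of RND1 joined, 3976 bases, its control level would be 3.67 ± 0.277 CPM per kilobase. The level of RND1 therefore depends on which transcripts ES2 makes. With all exons joined for each of the 3 genes, RND1 still had the lowest control mean. Under the RUNX1-IT1 ASO the levels per kilobase were 0.777 ± 0.103 for RRAD, 0.769 ± 0.101 for RND1 and 0.675 ± 0.281 for ARL14, and the 3 ranges overlapped.

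Ratios between genes of 1 library do not depend on how the libraries were scaled. RRAD over RND1, per kilobase, was 1.36, 1.34 and 1.42 in the control ASO replicates and 1.07, 0.938 and 1.03 in the RUNX1-IT1 ASO replicates. This ratio was lower in every RUNX1-IT1 ASO library, so the measured decrease of RRAD was somewhat larger than that of RND1. It rested there on 21 to 24 reads of RRAD and 21 to 25 of RND1 per library. Counting error therefore limits how well the 2 decreases can be told apart. The ratio RND1 over ARL14 was 0.870, 0.944 and 1.02 in the control ASO replicates and 0.674, 1.32 and 1.92 in the RUNX1-IT1 ASO replicates. The groups overlapped for this ratio, and it was lowest in RUNX1-IT1 ASO replicate 1, where ARL14 was highest. No test was made of these ratios, since the same contrast chose the genes.

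The wider superfamily was followed through lists of 157 small GTPase genes, and 154 of them are not among the 3 described so far. Of those 154, 7 were listed and 6 had the mean of at least 1 CPM that the test required. All 6 fell in limma (adjusted p from 5.2e-09 to 0.00063), where 97.5% of all tested genes were called lower. The entries were already selected for a difference between these libraries, so p-values of these genes are not independent evidence. RASD1 and RASL10A averaged 0.991 and 0.542 CPM under the RUNX1-IT1 ASO, so they met the required mean only through the control ASO group. The median difference of the 6 genes was -1.15, against -1.11 over all 489 tested genes. As a group they moved about as far as the tables' other genes. Scaling each library to the same total of listed entries (called rescaling from here on) moves the median over all tested genes to -0.06 and leaves 24.1% of them called lower and 8.79% higher. It left 2 of the 6 lower (RASD1 and RASL11A), turned 2 higher (GEM and RHOB) and called neither for the other 2.

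GEM, which with RRAD belongs to the Rad/Gem/Kir branch, stood at 186, 173 and 192 CPM in the control ASO replicates. Under the RUNX1-IT1 ASO it was at 74.6, 80.0 and 74.3 CPM. The groups did not overlap. GEM fell 2.41-fold, by a log2(CPM + 1) difference of -1.26 ± 0.07 (SE, limma adjusted p = 5.2e-09), which turned to 0.23 after rescaling. Per kilobase, RRAD was at 0.141, 0.137 and 0.152 of the GEM level in the control ASO replicates and at 0.0212, 0.0199 and 0.0266 of it in the RUNX1-IT1 ASO replicates. This ratio does not depend on the scaling, and its values in the 2 groups did not overlap. As RRAD was chosen for its large decrease in this contrast, that separation follows from the choice and was not tested.

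RHOB, an endosomal small GTPase whose gene is quickly induced by stress and growth factors, stood at 112, 109 and 125 CPM in the control ASO replicates, against 49.3, 55.1 and 63.0 CPM in those of the RUNX1-IT1 ASO, and fell 2.06-fold (-1.04 ± 0.10, SE, limma adjusted p = 2.9e-07; 0.44 after rescaling). RND1 per kilobase was at 0.185, 0.175 and 0.177 of the RHOB level in the control ASO replicates and at 0.0321, 0.0330 and 0.0328 of it in the RUNX1-IT1 ASO replicates. Within each group this ratio hardly varied between libraries, but RND1 had only 21 to 25 reads per RUNX1-IT1 ASO library. Counting error alone would give RND1 a coefficient of variation of 20.7% there, so the reads cannot resolve such closeness. No test was made of this ratio, since its contrast chose RND1. RHOH, a GTPase of blood cells that like RND1 lacks GTPase activity, was at 0.832 ± 0.320 and 0.301 ± 0.198 CPM, too low to be tested, and its groups overlapped.

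RASD1, a Ras-related gene induced by dexamethasone, came closest to the 3 genes among the other small GTPases. Its values were 7.87, 6.31 and 8.15 CPM in the control ASO replicates, against 0.749, 1.34 and 0.879 CPM in those of the RUNX1-IT1 ASO, a 7.52-fold fall (-2.09 ± 0.15, SE, limma adjusted p = 2.3e-08; -1.07 after rescaling). RASL11A, a Ras-like gene, fell 4.80-fold, from 5.56 ± 0.883 to 1.16 ± 0.117 CPM (-1.60 ± 0.13, SE, limma adjusted p = 1.1e-07; -0.56 after rescaling). RASL10A, another Ras-like gene, went from 1.64 ± 0.260 to 0.542 ± 0.254 CPM, and RASEF, a Rab GTPase with calcium-binding EF hands, from 2.64 ± 0.198 to 1.18 ± 0.534 CPM. Both fell in limma (adjusted p = 0.00017 and 0.00063), and neither was called after rescaling, at -0.08 and 0.18. Among the 31 Arf and Arl genes of the lists ARL14, itself chosen from the listed entries, was the single one listed. None of the other 30 was listed, beside 7 of the 154 other genes over all 4 small GTPase lists. An unlisted gene is not shown to have kept its level.

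**Figure D3:**
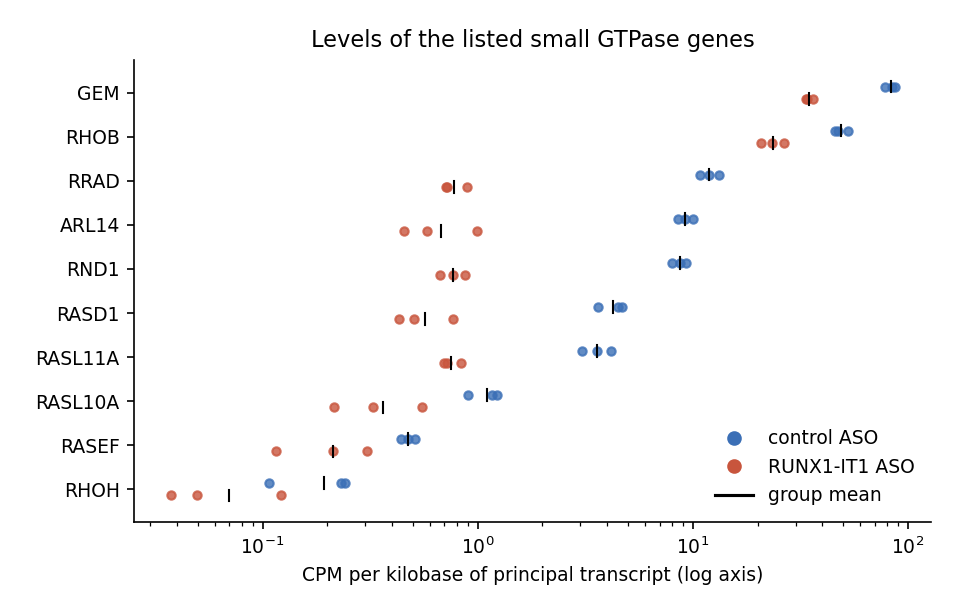
CPM per kilobase of principal transcript on a log axis for the 10 listed small GTPase genes, ordered by control level, with 1 point per library, control ASO in blue, RUNX1-IT1 ASO in red, and a short line at each group mean. RRAD, ARL14 and RND1 lie between 8.03 and 13.2 in control libraries, under GEM and RHOB, and at 0.453 to 0.991 under the RUNX1-IT1 ASO.

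The proteins that switch small GTPases on and off were followed through 2 lists with 233 genes. Of these, 13 were listed, 7 had a high enough mean to be tested, and all 7 fell in limma, again beside 97.5% of all tested genes. Their median difference was -1.08, near the -1.11 over all tested genes, and after rescaling 1 of the 7 was called lower and 6 neither. In all 13 every RUNX1-IT1 ASO library lay below every control ASO library, which holds for 95.7% of all 771 entries with a symbol.

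Of 111 exchange factors 7 were listed. CYTH4, a cytohesin that activates Arf GTPases, fell from 6.85 ± 0.975 to 2.25 ± 0.379 CPM (limma adjusted p = 1.1e-06). MCF2L2, of the Dbl family of exchange factors, fell from 4.43 ± 0.677 to 1.29 ± 0.151 CPM (limma adjusted p = 1.3e-06), and DENND2C, a DENN-domain protein of the Rab exchange factor family, fell from 7.10 ± 0.512 to 2.96 ± 1.15 CPM (limma adjusted p = 9.7e-05). After rescaling CYTH4, MCF2L2 and DENND2C stood at -0.09, -0.20 and 0.14, none of them called. The other 4 were too low to be tested. KALRN and MCF2L, both also of the Dbl family, had control means of 0.940 and 1.43 CPM and RUNX1-IT1 ASO means of 0.369 and 0.130 CPM. RASGRP2 and RASGRP3, exchange factors of Ras and Rap, had 0.880 and 0.923 CPM in controls and 0.255 and 0.224 CPM under the RUNX1-IT1 ASO.

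Of 122 GTPase-activating proteins 6 were listed. RAP1GAP, which turns off Rap1, had the largest log2 difference of the tested regulators, from 2.15 ± 0.221 to 0.219 ± 0.138 CPM (-1.37 ± 0.13, SE, limma adjusted p = 3.5e-07), and was the 1 regulator still called lower after rescaling, at -0.80. It had 7, 2 and 3 reads in the RUNX1-IT1 ASO replicates. SIPA1L2, another Rap regulator, fell from 2.73 ± 0.578 to 1.08 ± 0.180 CPM and ACAP1, an Arf regulator, from 2.77 ± 0.146 to 1.38 ± 0.135 CPM, and both turned positive after rescaling, at 0.11 and 0.33, without a call. USP6, a ubiquitin protease with a Rab-regulator domain, fell from 1.79 ± 0.0530 to 0.512 ± 0.0918 CPM (-0.16 after rescaling, not called), and its reads may be shared with near-identical relatives. The limma adjusted p-values of SIPA1L2, ACAP1 and USP6 were 8.5e-05, 0.00014 and 9.7e-06. RAP1GAP and USP6 averaged 0.219 and 0.512 CPM under the RUNX1-IT1 ASO, so they met the required mean only through the control ASO group. MCF2L, at 1.43 CPM in controls and 0.130 CPM under the RUNX1-IT1 ASO, missed that mean and was not ranked. The p-values of these regulators, taken from selected entries, are not independent evidence. ADAP1 (1.21 and 0.264 CPM) and ARHGAP9 (1.13 and 0.452 CPM) were too low to be tested.

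No gene was listed out of 40 binding partners of the 3 proteins, among them the calcium channel beta subunits and calmodulins that RRAD binds, the plexins that RND1 binds and the ARL14 partners ARL14EP and MYO1E. Their levels are not analysed here.

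Likeness was measured as the root mean square difference between 2 profiles over the 6 libraries, each profile being log2(CPM + 1) minus its control ASO mean. With the 3 small GTPase genes themselves left out of the ranking, the nearest to RRAD were ATF3 (0.15), ARC (0.16) and SNAI1 (0.28), which encode a stress-induced transcription factor, a neuronal immediate early protein and a repressor of E-cadherin. RND1 was nearest to ARC (0.14), SNAI1 (0.16) and ID2 (0.16), the last an inhibitor of helix-loop-helix factors. The genes nearest to ARL14 were ID2 (0.10), PAX8-AS1 (0.18) and FOSB (0.21), a non-coding RNA gene opposite PAX8 and an AP-1 subunit. Among the 3 small GTPase genes, RRAD and RND1 differed by 0.27, RND1 and ARL14 by 0.23, and RRAD and ARL14 by 0.33. Mean CPM of these neighbours in the control ASO and RUNX1-IT1 ASO groups was 58.8 and 6.16 for ATF3, 37.8 and 4.01 for ARC, 33.1 and 3.82 for SNAI1, 16.9 and 1.59 for ID2, 29.9 and 4.04 for PAX8-AS1 and 65.9 and 10.3 for FOSB. This measure mainly orders genes by the size of the decrease and says nothing of shared control.

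**Figure D4:**
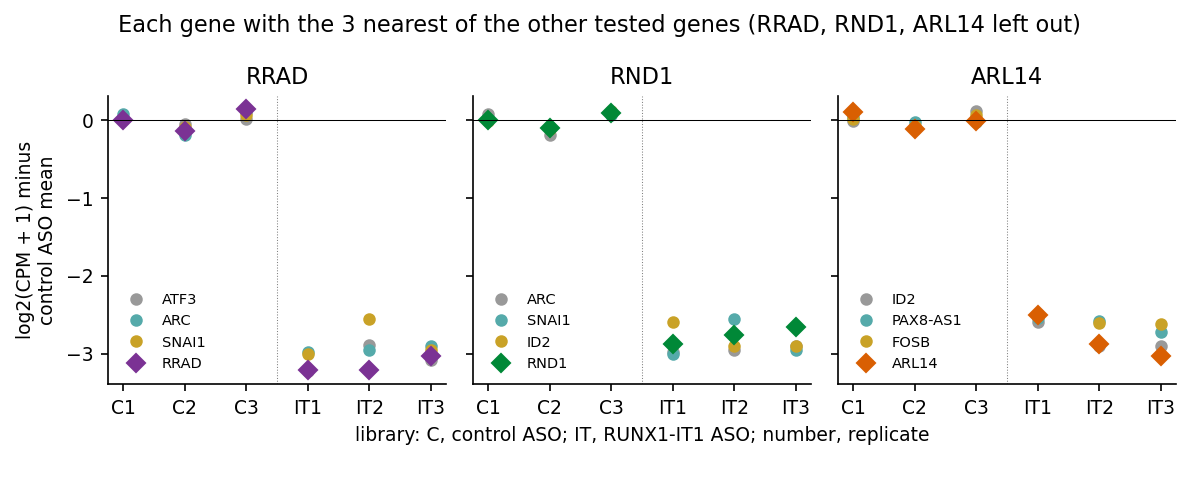
Profiles over the 6 libraries (x axis) as log2(CPM + 1) minus the control ASO mean (y axis), for RRAD, RND1 and ARL14 (diamonds) and the 3 other tested genes nearest to each, RRAD, RND1 and ARL14 left out (circles), with 1 point per library and gene. The control ASO libraries lie near 0 and the RUNX1-IT1 ASO libraries near -3, and within the latter ARL14 is highest in replicate 1, where RND1 is lowest.

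The 3 genes lie on different chromosomes. In GENCODE release 29 on GRCh38, RRAD (ENSG00000166592.11) lies on chromosome 16 from 66921679 to 66925644 on the minus strand, and its principal transcript has 5 exons and 924 coding bases. RND1 (ENSG00000172602.10) lies on chromosome 12 from 48857145 to 48865898 on the minus strand, with 5 exons and 696 coding bases. ARL14 (ENSG00000179674.3) lies on chromosome 3 from 160677159 to 160678452 on the plus strand and has a single exon with 576 coding bases. The annotation tags ARL14 as a retrogene, a copy that arose by reverse transcription. No other annotated gene overlaps any of the 3 on either strand, so their reads have no annotated antisense partner to be confused with.

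The surroundings of the 3 genes were little represented in the tables. The nearest protein-coding genes are CDH16 and CIAO2B at 2695 and 6411 bases from RRAD, DDX23 at 4303 bases from RND1, and PPM1L and KPNA4 at 77150 and 111571 bases from ARL14, and none of these is listed. Within 1 megabase on either side, none of 96 annotated genes around RRAD was listed, 1 of 115 around RND1 (FAM186B) and none of 36 around ARL14. As most genes of the genome are absent from these tables, this describes the tables and does not show that the neighbours kept their level.

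The order and sign of the 3 differences were followed through other ways of computing them. Rescaling gave -2.04 for RRAD, -1.79 for ARL14 and -1.65 for RND1, ranks 1, 2 and 4 of 489. With a pseudocount of 0.1 in place of 1 the differences were -3.84, -3.69 and -3.41 in the same order of genes. Their ranks were then 4, 5 and 10. In edgeR on the recovered reads the differences were -3.94, -3.75 and -3.50, at ranks 6, 7 and 11. RRAD had the largest and RND1 the smallest decrease of the 3 in each of these, and ARL14 and RND1 changed places when single libraries were left out.

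**Figure D5:**
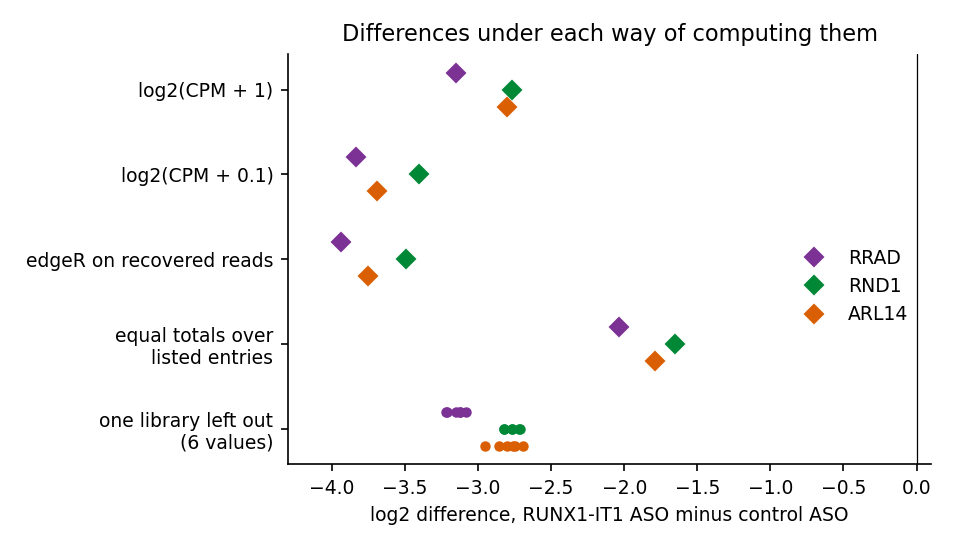
Log2 difference, RUNX1-IT1 ASO minus control ASO (x axis), of RRAD, RND1 and ARL14 under 4 ways of computing it and with each library left out in turn (y axis, small points, 6 per gene). All values lie between -3.94 and -1.65, with RRAD the lowest of the 3 in each row.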

How the data were processed

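The members and gene lists were chosen with earlier results of these data known. Per the labels, 6 mRNA-focused libraries were made from ES2 cells. The submitters' processing notes name GRCh38, fastp 0.22.0 and FastQC 0.11.9, and no aligner, counter, annotation or strand setting is given in the sources used here. The authors deposited CPM values (the unit was read from the values). Of 1113 entries, 342 (30.7%) have no symbol and were left out of tests; they hold 9.35 to 10.4% of the listed CPM.

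CPM values fell on steps of 1 read. Up to 160 steps, each was whole to within 0.1 step, and the multiples had no common divisor, so reads were recovered, with implied totals of 17100000 to 21200000 per library. The smallest value lay above 1 step in the control libraries, which makes their totals less certain. The main test was limma 3.58.1 (R 4.3.3) with trend, on log2(CPM + 1), group being its only term. It covered 489 genes averaging 1 CPM or more (282 fell below). Calls are at a Benjamini-Hochberg adjusted p under 0.05 over these genes, and fold changes on this scale understate the change of low genes. Since the tables are selected, such p-values are not independent evidence. edgeR 4.0.16 was run on the recovered reads as an alternative. Both were tested on simulated data, in which equal numbers of genes rose and fell and the others kept their level. Nearly all tested genes fell here, so that simulation does not show how the tests behave on these tables. The result of 1 gene list is not reported here. Pairs of replicates differed by more than sampling noise (chi-square per degree of freedom 1.72 to 3.67). Other alternatives were another pseudocount, other filters, rescaling, a replicate block and leaving out each library. Named genes were the 3 members, the listed genes of each list, up to 12 in order of mean CPM, and the 3 tested genes, other than members, nearest to each member; FAM186B, the flanking genes and those in the rank order were named after their values were seen.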

Additional observations from a re-analysis of the deposited data

How the results depend on the processing

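All 27 alternative values of the RRAD, RND1 and ARL14 differences were negative. With a pseudocount of 0.1 they were -3.84, -3.41 and -3.69, after rescaling each library to the same listed total -2.04, -1.65 and -1.79, and in edgeR on recovered reads, an alternative chosen after seeing the data for these values, -3.94, -3.50 and -3.75. With 1 library left out they ran from -3.22 to -3.08 for RRAD, -2.82 to -2.71 for RND1 and -2.95 to -2.69 for ARL14. Genes called lower numbered 477 and higher 10 of 489 tested; 750 and 19 of 771 with no filter on low values, 165 and 0 of 165 at a mean of at least 5 CPM (limma, where all tested genes were called lower), 118 and 43 after rescaling, and 478 and 11 in edgeR. With 1 library left out they ran from 477 to 478 lower and from 10 to 11 higher. Of the small GTPase genes other than the 3, 6 of 6 tested were called lower. This became 7 of 7 with no filter, 2 of 2 at 5 CPM and 2 of 6 after rescaling. Of the regulators 7 of 7 tested were called lower. Their count became 13 of 13 with no filter, 1 of 1 at 5 CPM and 1 of 7 after rescaling. A filter changes how many genes are tested, and rescaling centres genes that nearly all fell. No binding partner was listed, which none of these settings could change. A replicate block gave 478 lower and 10 higher. Same-numbered libraries did not deviate together (r = -0.24, -0.10 and -0.02 over 489 genes), so the numbers were not taken as pairs. Depth limits the RUNX1-IT1 ASO values of the 3 genes, at 10 to 25 reads each.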
